A study of Arabidopsis thaliana with 6 samples.

Results

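The genes described here encode 5 calmodulin-like proteins of Arabidopsis thaliana, namely CML23 (AT1G66400), CML38 (AT1G76650), CML42 (AT4G20780), CML10 (AT2G41090) and CML40 (AT3G01830). They were taken by name from the annotation of the ATH1 array, where each has 1 probe set, so that 5 of 22746 probe sets are described. The names were picked because several of these genes differed between lines in an earlier reading of the same values, and for that reason their differences are given below as descriptions, without a test. All 5 probe sets passed the filter on low values, which kept 13647 probe sets and had its limit at a mean intensity of 29.6 units.

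Calmodulin-like proteins bind calcium through EF-hands, a helix-loop-helix fold whose loop holds the ion. When cytosolic calcium rises they change shape and bind other proteins, and they thereby act as sensors with no enzyme activity of their own, whereas calcium-dependent protein kinases such as CDPK6 join an EF-hand sensor and a kinase in 1 polypeptide. In Arabidopsis many CML transcripts respond quickly to touch, wounding, cold, low oxygen or pathogens.

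Whole seedlings of ecotype Col-0 were profiled on 6 arrays, each hybridised with RNA of about 40 pooled plants that had been kept in a growth room at 22 °C and 16 h light. The control line, aeq+, carries an aequorin transgene (aequorin is a light-emitting calcium reporter protein) and had 2 arrays. The titles of both give the line name as Kan, and what Kan stands for is not read here. The line called cdpk6-yfp 4 (line 4) had 2 arrays and cdpk6-yfp-1 (line 1) had 1 array, and both carry a cdpk6-yfp transgene. The labels do not give the promoter of either transgene, the number of insertions, the age of the seedlings or whether the cdpk6-yfp lines also carry aequorin. The labels of a sixth array contradict each other. Its source name and the line name in its title, Kan, are of the control type. Its strain label is that of line 1, and the array code in its title pairs it with the line 1 array. That array belongs to no group here, and its values are given by themselves under the name of the array with conflicting labels. Nothing says that replicate pools were grown or harvested apart, and the spread that p-values measure is therefore that between pools, which may be technical.

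All arrays had been brought to a trimmed mean of 100.01 units, with medians between 44.2 and 46.4 units. Scanner background was 142.62 for control replicate 2, while every other array had 89.78 to 95.64. The ratio of 3′ to 5′ actin probe signal, a sign of RNA integrity, was 4.27 and 4.3 in the control, 3.19 and 3.48 in line 4, 4.17 in line 1 and 4.67 on the array with conflicting labels. The 25S ribosomal RNA probe set read 282.1 and 277.2 units in the control, 275.4 and 915.9 in line 4, 1073.1 in line 1 and 2189.3 on the array with conflicting labels. The actin ratio was lower on both line 4 arrays than on all others. The 25S signal was high on the line 1 array, on the array with conflicting labels and on 1 of the 2 line 4 arrays, while line 4 replicate 1 read like the controls. The part of both in the differences below was not tested. Of the markers for seedling tissues, the green-tissue gene RCA read between 2585.8 and 3588.0 units on all arrays. Among the 3 root markers on the array, PYK10 read between 2178.5 and 2929.8 units, EXPA7 between 23.7 and 37.8 and EXPA18 between 32.0 and 50.5. EXPA7 was lowest in line 1, and EXPA18 was highest on the array with conflicting labels. Each of these markers lay below both controls on both line 4 arrays, as did 33.3% of all probe sets kept. None passed (limma adjusted p from 0.104 to 0.505). The flower and seed markers were not analysed here. In whole seedlings, fewer cells of a type and less RNA per cell cannot be told apart.

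Line 4 stood apart from the control in 4 of the 5 genes. CML10, CML40 and CML42 were higher on both line 4 arrays than on either control array and CML23 was lower, while the CML38 arrays overlapped. Over all probe sets kept, both line 4 arrays lay above both controls at 26.8%, below them at 33.3% and on either side at 60.1%, and nothing is read from the members' count. In line 1 CML23, CML38 and CML40 stood at least 2-fold below the control, CML10 stood above it and CML42 within 0.06 of it on the log2 scale. An intensity at least 2-fold lower and outside both controls was found on the line 1 array at 2.95% of all probe sets kept. CML40 was the member that lay above both controls in line 4 and below both in line 1.

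CML10, which is known to help sustain ascorbate synthesis through a phosphomannomutase, read 131.7 and 149.0 units on the control arrays and 1078.3 and 1004.3 units on the line 4 arrays. It read 245.0 units in line 1 and 257.6 units on the array with conflicting labels. Both line 4 arrays were highest, line 1 and the array with conflicting labels, 1 array each, lay close together in the middle, and both controls were lowest. The log2 difference of line 4 from the control was 2.89 ± 0.09 (SE, n = 2 against 2), a 7.43-fold higher intensity, whereas replicates were 0.18 (control) and 0.10 (line 4) apart on the log2 scale. Each SE in this text is that of the limma fit, which draws a gene's spread toward that of probe sets of like level. It is not the error of the gene's own replicates. The line 4 difference of CML10 was the 26th highest among the 13647 probe sets. As the gene was chosen with this difference known, nothing is read from the rank. The line 1 array lay 0.81 above the control mean on the log2 scale, or 1.75-fold.

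CML40 had the widest range of the 5 genes on the log2 scale, which rests on its values near the floor on 2 arrays. Its control values were 51.6 and 56.4 units and its line 4 values 176.7 and 164.8 units, while line 1 read 2.1 units and the array with conflicting labels 0.3 units. Both line 4 arrays were thus above both controls, and the line 1 array was far below them. The log2 difference of line 4 from the control was 1.66 ± 0.17 (SE, n = 2 against 2), or 3.16-fold. That of line 1 was -4.68, the 4th lowest of all probe sets kept, but it rests on a value close to the array's floor. With 10 units added to every value it was -2.40. Nothing is read from the rank, since the gene was chosen with its values known. The filter also left out genes low in line 1, such as CML37 at -5.86. The smallest positive value in the whole data set was 0.1 units, so the order of 2.1 and 0.3 units is not read as a difference.

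CML42, which in Arabidopsis takes part in trichome branching and in limiting jasmonate-dependent defence, had replicates 0.02 apart on the log2 scale in the control and in line 4 alike. It read 102.0 and 100.6 units in the control, 145.8 and 147.5 units in line 4, 105.7 units in line 1 and 78.7 units on the array with conflicting labels. Line 4 was highest and the array with conflicting labels lowest, and line 1 lay just above both controls. The log2 difference of line 4 was 0.53 ± 0.10 (SE, n = 2 against 2), or 1.45-fold. That SE, drawn toward the spread of probe sets of like level, exceeds the gap between these replicates. The line 1 difference of 0.06 exceeded the 0.02 between the control replicates, but with the array with conflicting labels averaged into line 1 it turned to -0.15.

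CML23, which with its close relative TCH2 (CML24) is known to affect flowering time and nitric oxide levels, was lower than the control on every other array. It read 98.0 and 104.9 units in the control and 43.1 and 42.8 units in line 4. Line 1 read 26.2 units and the array with conflicting labels 12.0 units, each a single array. The values thus fell from the control through line 4 and line 1 to that array. The log2 difference of line 4 from the control was -1.24 ± 0.15 (SE, n = 2 against 2), a 2.36-fold lower intensity, and that of line 1 was -1.95, or 3.87-fold lower. The line 4 replicates were 0.01 and the control replicates 0.10 apart on the log2 scale. With the array with conflicting labels averaged into the control, the line 4 difference shrank to -0.21 and the line 1 difference to -0.93.

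CML38, a sensor that is induced by wounding and low oxygen and joins RNA granules under low oxygen, was high in the control and in line 4 alike. It read 542.3 and 665.3 units in the control and 653.6 and 631.5 units in line 4, so these groups overlapped. Line 1 read 145.1 units and the array with conflicting labels 18.1 units, both below all 4 other arrays. The line 4 difference of 0.10 ± 0.10 on the log2 scale was smaller than the 0.29 between the control replicates, and without control replicate 1 it turned to -0.05. The line 1 difference was -2.05, a 4.14-fold lower intensity. With the array with conflicting labels counted as a control it was -0.37.

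**Figure D1:**
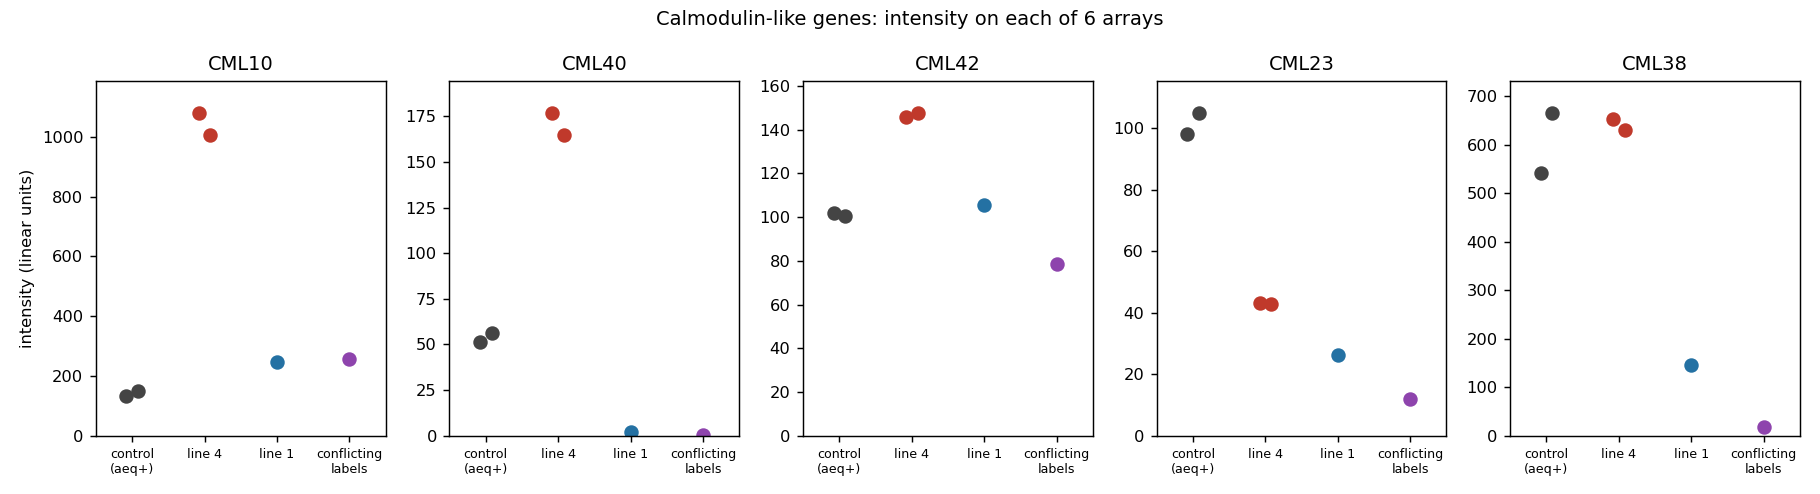
Intensity in linear units (y axis, from 0, with its own scale for each gene) of CML10, CML40, CML42, CML23 and CML38 on each array, 1 point per array, by group (x axis). Line 4 points lie above the control points for CML10, CML40 and CML42, below them for CML23 and among them for CML38, while line 1 lies below the control for CML40, CML23 and CML38.

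The rest of the CML family was read from a list of 50 loci, of which 35 had a named probe set on the array and 20 passed the filter. Without the 5 genes above, 15 of 30 passed. Of these 15, 5 rose and 2 fell in line 4 at a limma adjusted p under 0.05, which is 46.7% called against 15.5% of all 13647 probe sets (8.1% higher and 7.37% lower). CML41, described next, is among the 5 although it passed the filter only through its line 4 level, and without it 4 of 14 rose and 2 fell, or 42.9%. The median log2 difference of the 15 was 0.19, against -0.03 over all probe sets. In line 1, 3 of the 15 lay at least 2-fold below and outside both controls and 0 above, with a median of -0.16 against 0.03 over all probe sets. By the same rule 2.95% of all probe sets were lower in line 1, 1.11% higher and 4.07% either. The counts leave out the genes that failed the filter and describe 15 genes, not the family.

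CML41, a plasmodesmal protein that promotes callose deposition during immunity, read 23.8 and 23.3 units in the control and 125.5 and 117.6 units in line 4. It rose by 2.37 ± 0.17 on the log2 scale (SE, n = 2 against 2, limma adjusted p = 2.63e-05). Its control mean lay below the filter's limit, so that it was tested because of its line 4 level. In line 1 it read 21.5 units and on the array with conflicting labels 28.6 units, both close to the control. Its line 1 difference was -0.13 on the log2 scale, where CML10 had 0.81 and CML40 had -4.68.

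AT5G39670 had the pattern of CML40 at a level well above the floor in the control. It read 123.4 and 137.6 units in the control and 402.0 and 383.1 units in line 4, a rise of 1.59 ± 0.10 on the log2 scale (SE, n = 2 against 2, limma adjusted p = 1.08e-05). In line 1 it read 26.1 units, a log2 difference of -2.32, and on the array with conflicting labels 34.6 units. Line 4 lay above both controls and the other arrays lay below both. AT5G04170 and AT2G41410 rose in line 4 by 0.79 ± 0.10 and 0.59 ± 0.09 (limma adjusted p = 0.00107 and 0.00271), with line 1 at 0.37 and -0.29. AT3G10190 fell by 0.76 ± 0.13 (limma adjusted p = 0.00506), from 82.7 and 81.4 units to 47.9 and 49.1 units, while line 1 read 82.6 units, within the range of the controls.

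A further pair of calls was less stable. AT3G25600 rose by 0.26 ± 0.07 (limma adjusted p = 0.0452), from 592.0 and 600.1 units to 722.6 and 701.4 units, and AT1G62820 fell by 0.36 ± 0.11 (limma adjusted p = 0.0479). Both calls were lost in 10 of 12 alternative fits, among them each fit without 1 replicate. With the array with conflicting labels as a control, 1 of the 7 calls among these other CML genes, that of CML41, was kept, and with it as line 1 there were 3. AT3G25600 also read 291.1 units in line 1 and 199.8 units on the array with conflicting labels, at log2 differences of -1.03 for line 1 and 0.26 for line 4.

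AT1G21550 was the third of the other CML genes with a low line 1 value, at 9.6 units against 39.1 and 59.4 units in the control, and it read 9.1 units on the array with conflicting labels. Its line 4 values of 30.3 and 38.7 units lay below both controls, with a log2 difference of -0.49 ± 0.26 that did not pass (limma adjusted p = 0.236). Among the genes of the family with no call in line 4 and no 2-fold difference in line 1, those with the highest mean intensity were AT1G12310, AT1G18210, AT3G10300 and AT2G27480. Their line 4 differences were -0.11, 0.18, 0.19 and -0.23, with limma adjusted p from 0.152 to 0.424. On the array with conflicting labels AT3G10300 read 104.1 units, below its controls of 224.2 and 213.8 units.

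**Figure D2:**
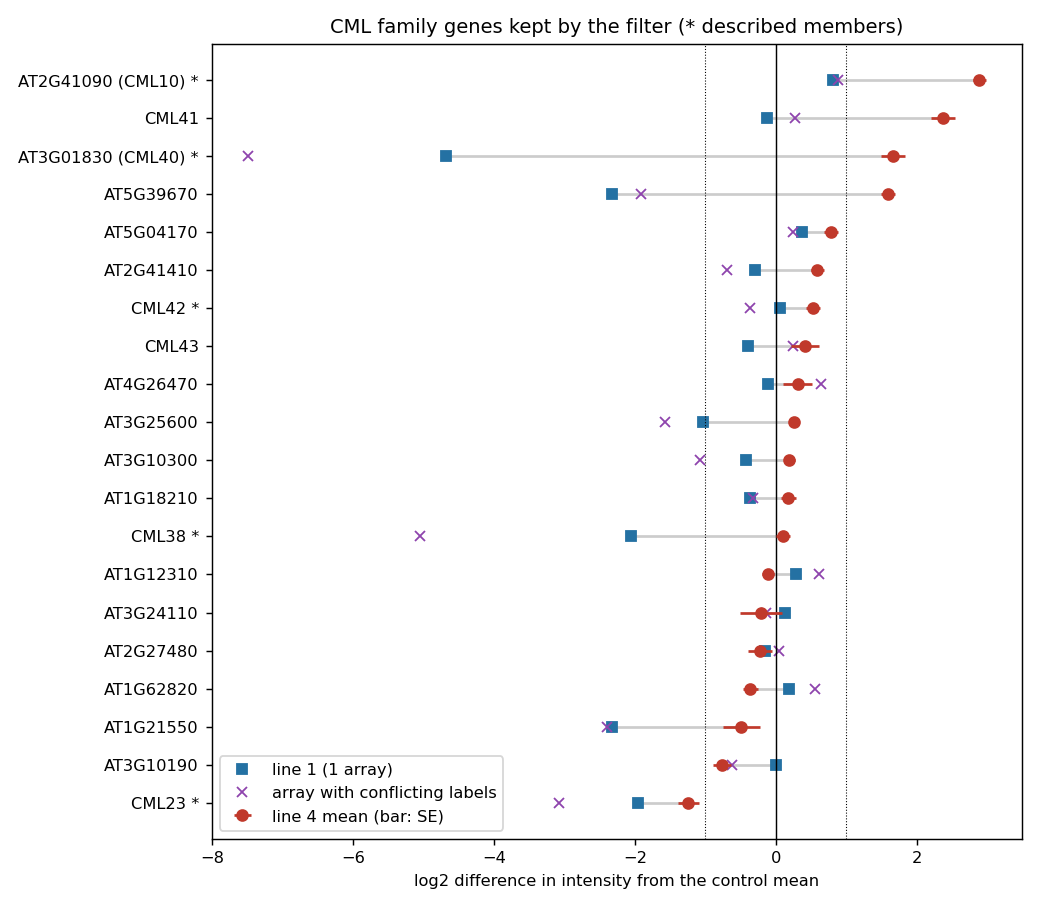
Log2 difference in intensity from the control mean (x axis) for the 20 CML genes that passed the filter (y axis, ordered by the line 4 difference, with an asterisk at the 5 genes chosen by name). Circles are line 4 means with bars of 1 SE, squares the line 1 array, crosses the array with conflicting labels, and dotted lines mark 2-fold. CML10 has the highest line 4 value, at 2.89, and CML40 the lowest line 1 value, at -4.68.

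The filter left out 15 CML genes, 10 of which stayed at or under 18.3 units on every array. A further 5 crossed the filter's limit on at least 1 array. CML37, a relative of CML38 known as a positive regulator of defence against insect feeding, was left out because of its low line 1 value. It read 50.4 and 54.2 units in the control and 73.3 and 82.9 units in line 4, but 0.9 units in line 1 and 0.5 units on the array with conflicting labels. Both line 4 arrays lay above the controls and both other arrays near the floor. In the fit with no filter its line 4 difference of 0.58 ± 0.23 did not pass (limma adjusted p = 0.221).

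AT3G47480, named here after its values were seen, read 8.0 and 6.1 units in the control and 169.2 and 178.9 units in line 4. Line 1 read 7.7 units and the array with conflicting labels 14.9 units. It was left out because 3 of the 5 grouped arrays were near the floor, and in the fit with no filter its log2 difference was 4.64 ± 0.26 (SE, n = 2 against 2, limma adjusted p = 0.00114). That difference, measured from control values near the floor, was the 1 call among the 15 genes left out.

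Other calcium signalling genes were barely covered. Of 119 further loci listed, for calmodulins, calcineurin B-like sensors and their kinases, calcium-dependent protein kinases, calcium pumps and exchangers, channels and calmodulin-binding regulators, 5 had a named probe set and all 5 passed the filter. They are the glutamate receptor-like channel genes GLR3.3 and GLR3.6 and AT1G67310, AT4G16150 and AT3G16940 of the CAMTA family of calmodulin-binding transcription factors. GLR3.3 read 66.3 and 60.8 units in the control, 77.4 and 72.4 units in line 4 and 70.4 units in line 1. Line 4 differences of the 5 genes lay between -0.17 and 0.24 and line 1 differences between -0.26 and 0.54, and none passed in line 4 (limma adjusted p from 0.263 to 0.81). The transcripts of calmodulins and of CDPK6 itself were not analysed here.

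Genes next to the 5 members on the chromosome were set beside them, since some CML genes lie in tandem with relatives. Of the 20 nearest protein-coding genes, 2 on each side of each member, 11 had a named probe set. CML39 (AT1G76640), the tandem neighbour of CML38, stayed between 0.9 and 3.2 units on all arrays. The CML10 neighbour TCH3 (CML12) and the CML23 neighbour CAM4 were not analysed here. The 6 neighbouring probe sets that passed the filter belong to 5 genes around CML42, CML10 and CML40. Their line 4 differences lay between -0.54 and 0.49, and none passed (limma adjusted p from 0.0754 to 0.503). The 3 measured neighbours of CML40 had line 1 differences of -0.14 (AT3G01810), -0.51 (AT3G01820) and -0.38 (AT3G01850), where CML40 had -4.68.

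The genes whose profiles were nearest to each member were found among the 7361 other probe sets kept that carry the name of 1 gene, by the root mean square difference of log2 values over the 6 arrays, each gene centred on its control mean. For CML10 these were AT1G43910, AT2G25510 and AT4G12490, at distances of 0.36, 0.47 and 0.53 on the log2 scale. AT1G43910, an AAA-type ATPase gene, read 32.6 and 38.8 units in the control, 307.0 and 327.0 units in line 4, 54.9 units in line 1 and 38.7 units on the array with conflicting labels. It followed CML10 in line 4, while the array with conflicting labels lay above the controls for CML10 (257.6 units) and within their range for AT1G43910.

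For CML42 the nearest were AT1G22410, AT5G39030 and FMO (AT1G12200), at 0.08, 0.08 and 0.09. For CML38 they were AT1G72240, AT2G18210 and AT1G11210, at 0.27, 0.33 and 0.40. AT1G72240 read 106.7 and 130.3 units in the control, 104.3 and 98.9 units in line 4, 20.4 units in line 1 and 3.6 units on the array with conflicting labels. As for CML38, line 1 was low and the array with conflicting labels lowest, but both line 4 arrays lay below both controls, where those of CML38 overlapped them. For CML23 they were AT5G17350, the AP2/ERF transcription factor gene ORA47 and AT5G45630, at 0.38, 0.40 and 0.46. ORA47, known for activating jasmonate synthesis genes, read 358.9 and 324.4 units in the control, 168.7 and 161.6 units in line 4, 46.6 units in line 1 and 43.6 units on the array with conflicting labels. ORA47 was thus low in the same groups as CML23.

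For CML40 the nearest of these 7361 lay farther off than for the other members. They were the VQ motif gene AT2G22880, the matrix metalloproteinase gene AT1G24140 and AT4G37290, at 1.24, 1.60 and 1.71. AT2G22880 read 95.3 and 121.8 units in the control, 105.6 and 99.3 units in line 4, 2.2 units in line 1 and 1.7 units on the array with conflicting labels. These genes had the low line 1 values of CML40 but line 4 differences of -0.07, 0.34 and 0.22, where CML40 had 1.66. Distances for CML40 are widened by values near the floor. CML37, which the filter left out, was not among the candidates. Its log2 differences were 0.58 in line 4, -5.86 in line 1 and -6.71 on the array with conflicting labels. CML40 had 1.66, -4.68 and -7.49 there. The 7361 candidates thus leave out genes low in line 1, such as CML37. Its likeness to CML40 rests on values near the floor, and its line 4 difference did not pass in the fit with no filter.

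**Figure D3:**
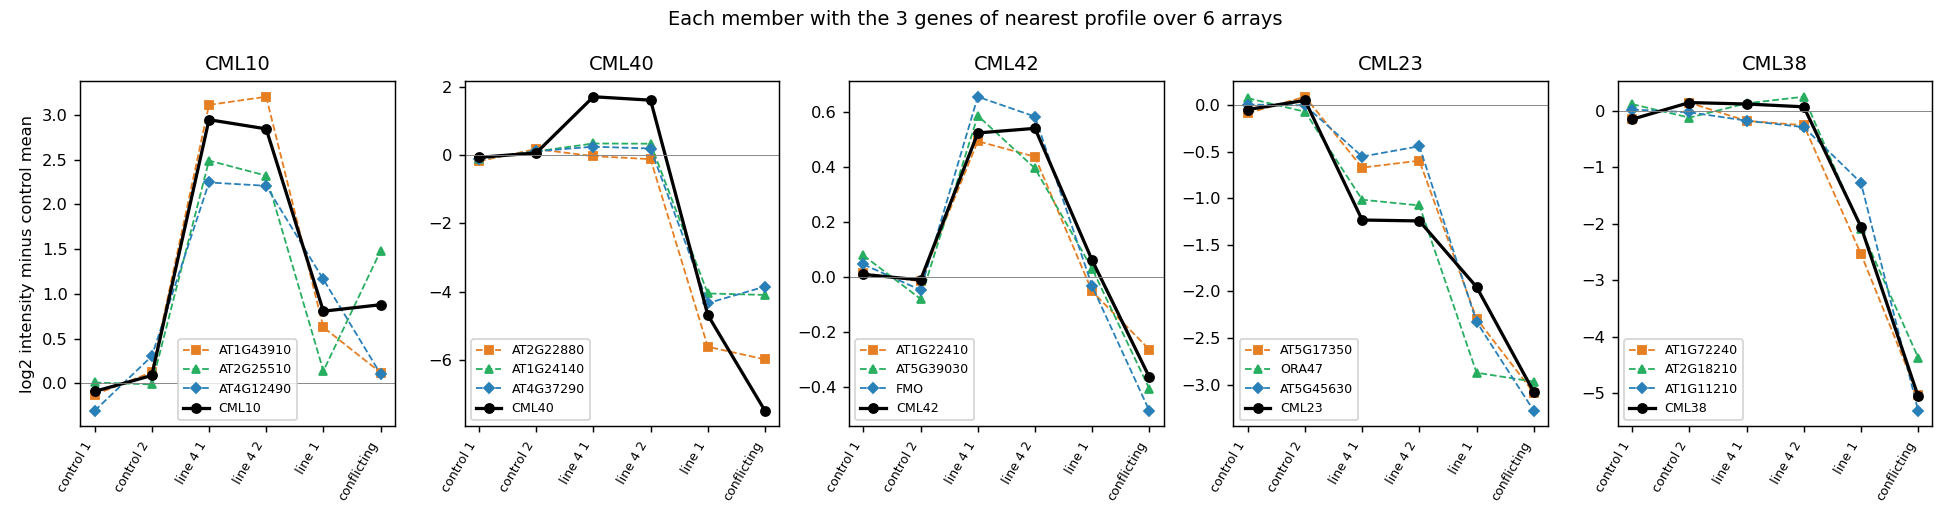
Log2 intensity minus the control mean (y axis) on each of the 6 arrays (x axis) for each of the 5 genes (black) and the 3 genes of nearest profile (dashed). The dashed lines run within 0.09 root mean square of CML42 but stay below CML40 in line 4. There CML40 stands at 1.66 and AT2G22880, its nearest gene among those kept by the filter, at -0.07.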

How the data were processed

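Total RNA of 6 seedling pools was labelled with biotin and hybridised to ATH1 arrays, per the labels. The deposited values are intensities on a linear scale. The sources used here give neither the authors' method of summarising probes nor a genome build. Each array had a 2% trimmed mean of 100.01. The 126 values of 0 were raised to 0.1 before log2, with no further scaling. Of 22810 probe sets, 64 controls and then the 40% with the lowest mean log2 value on the 5 arrays in groups were left out. Line 4 was compared with the control in limma 3.58.1 (R 4.3.3), with lmFit and eBayes with a variance trend on 5 arrays in 3 groups (n = 2, 2 and 1), and Benjamini-Hochberg adjustment over 13647 probe sets. Each SE given is taken from the spread as adjusted by eBayes, not from a gene's own replicates alone. Line 1 was described by size. The number of arrays limits the precision. The fit was also run on simulated data with independent noise of the fitted size. That run cannot show whether the p-values hold where replicates are technical or RNA quality differs between lines.

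Names came from the platform's annotation table, with symbols updated through the TAIR10.1 gene table. A single gene was given for 13513 of 22746 probe sets, several for 503 and none for 8730, and a probe set without a name here is not one without a gene. The gene lists were written for this work. Loci with neither a symbol nor a CML synonym in these tables are given by their ID, except CML10 and CML40. The members and lists were chosen with earlier results of these data known. Named genes are the 5 members, the 3 genes of nearest profile to each, list genes called in line 4 or at least 2-fold from and outside both controls in line 1, up to 4 others per family with the highest mean level, and measured neighbours within 2 genes. CML37 and AT3G47480, which the filter left out, were named after their values were seen.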

Additional observations from a re-analysis of the deposited data

Results flagged for a closer look

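CML40 stood above both controls on both line 4 arrays and below both controls on the line 1 array, at log2 differences of 1.66 and -4.68. The same opposite sides were seen for AT5G39670, at 1.59 in line 4 and -2.32 in line 1, and for AT3G25600, at 0.26 and -1.03. In each case the difference between the lines was not tested, line 1 is a single array, and both lines share the same controls. How many of all probe sets kept lay on such opposite sides was not counted, so nothing particular to these genes is read from it. The AT3G25600 call in line 4 was lost without any 1 of the 4 replicates. The array with conflicting labels, which enters no comparison, read 257.6 units for CML10, above both controls (131.7 and 149.0 units) and close to line 1 (245.0 units).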

How the results depend on the processing

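The array with conflicting labels moved the most values. With it as a control, line 4 differences became -0.21 for CML23, 1.78 for CML38, 0.66 for CML42, 2.60 for CML10 and 4.16 for CML40, and line 1 differences -0.93, -0.37, 0.18, 0.51 and -2.19. With it as line 1, the line 1 differences became -2.52 for CML23, -3.55 for CML38, -6.09 for CML40 and, with the sign turned, -0.15 for CML42. The CML40 values with this array rest on its reading of 0.3 units, near the floor, so their sizes are not read. A pseudocount of 10 gave line 4 differences of -1.07 for CML23, 0.49 for CML42 and 1.5 for CML40, and line 1 differences of -1.62 for CML23 and -2.40 for CML40. Quantile normalization gave 0.51 (line 4) and 0.04 (line 1) for CML42. Without 1 replicate, line 4 differences ranged from -1.29 to -1.19 for CML23, -0.05 to 0.24 for CML38, 0.52 to 0.54 for CML42, 2.80 to 2.98 for CML10 and 1.60 to 1.73 for CML40. All probe sets called in line 4 numbered 2111, against 1256 with no filter, 1116 without a variance trend, 94 and 203 with the array with conflicting labels as control and as line 1, and 1028 to 2094 without 1 replicate (1028 and 1064 without line 4 replicate 1 or 2). Without the 5 members, which were chosen with these values known, 7 of 20 calcium list genes tested were called in line 4 (35.0%). Over all probe sets kept the share was 15.5%. All 7 were CML genes. Without CML41, a count added after seeing the data, 6 of 14 CML genes were called (42.9%). Of these 7 calls, 1 and 3 remained with the array with conflicting labels as control and as line 1. In line 1, 6 list genes lay at least 2-fold from and outside both controls, 3 of them members. Without the members they were 3 of 20, against 4.07% of all probe sets kept. The count of 6 became 12 with no filter and 1 with that array as control. Nothing is read from that count, as it holds members. The cause of these shifts was not tested. With replicate number as a block, 2608 probe sets and 5 of the other CML genes were called in line 4. Same-numbered deviations of the control and line 4 correlated at -0.0749, which gives no sign of pairing. Of 97 alternative values, 65 kept their direction and moved less than the replicate spread, or for counts less than 1.5 times. These values take in counts over the whole calcium list, which hold the members.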
